A study of Mus musculus with 6 samples.

Results

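The comparison described here sets the liver of mice given dextran sodium sulphate and a parsley diet (DSSPAR) against the liver of mice given dextran sodium sulphate alone (DSS). This sulphated polymer, taken in drinking water, damages the lining of the colon and brings on colitis. All mice were male C57BL6/J, 7 weeks old. DSSPAR mice ate a basal diet with 2% parsley throughout, had plain water for 7 days and then drank 1.5% (w/v) of the polymer for 9 days, per the treatment protocol. DSS mice ate the basal diet and drank the same 1.5% solution after 7 days of plain water, for 10 days per their treatment protocol, so diet and 1 day of exposure cannot be told apart. The general protocol gives 9 days without settling this for DSS. Control mice (CON) had the basal diet and plain water and are given beside them. Each array took pooled RNA from 7 mice, with 1 array for each group and tissue, so 2 of the 6 arrays enter the comparison and each difference is between 2 pools. With 1 array per group no difference has a replicate check, an error between mice or a p-value, and precision is limited by the number of arrays.

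The Affymetrix Mouse Genome 430 2.0 array gives an intensity for each probe set, a group of short oligonucleotides against 1 transcript, and a gene may have several. Units are arbitrary, after the authors' scaling. The median over the 3 liver arrays, 96.6, served as a floor to which lower values were raised. A gene was measured if DSSPAR or DSS liver lay above the floor, which held for 12398 of 18194 genes on the array under 1 symbol. Just inside this limit lay Tex36, at 96.6412 in DSSPAR and 9.49 in DSS, and just outside it Sdr39u1, at 33.5 in DSSPAR and 96.598 in DSS. Differences are given as folds or as log2 ratios of DSSPAR over DSS. A fold with an array under the floor is given as "at least".

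The liver makes most plasma proteins and much of the body's newly made fat, cholesterol, glucose and urea. In inflammation, cytokines such as interleukin 6 and interleukin 1, which reach the hepatocyte through the blood, raise the transcription of acute phase proteins. Many genes of lipid, sugar, amino acid and drug metabolism are known to be expressed at lower levels during that response. Parsley leaves are rich in flavonoids, chiefly glycosides of apigenin.

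Several properties of the arrays bear on the values below. Hepatocyte genes marked both arrays as liver. The transthyretin gene Ttr read 70244 in DSSPAR, 135115 in DSS and 92358 in CON and the albumin gene Alb 59502 in DSSPAR, 111057 in DSS and 87388 in CON, and none of the 13 hepatocyte markers on the array was under the floor on all 3 arrays. The 18 probe sets for spiked hybridisation control transcripts, which are added in equal amounts to each sample, were all lower in DSSPAR than in DSS liver, with a median log2 ratio of -1.05 and a range of -1.22 to -0.84. In colon their median was 0.22. The 24 probe sets for polyadenylated controls were also all lower in DSSPAR liver (median -0.70). The 100 brightest genes had a median log2 ratio of -0.48, with 90 of them below DSS and 9 at least 2-fold lower. The median over all measured genes was -0.02. Among genes up to 5 kb long 108 of 1559 were at least 2-fold lower and 26 higher, whereas of 3299 genes over 50 kb 109 were lower and 108 higher. The ratio of 3′ to 5′ probe sets, which rises as RNA is degraded, was 2.63 for actin and 1.07 for Gapdh in DSSPAR, against 3.53 and 1.54 in DSS. The part of these differences in the results below was not tested. Among 4227 genes with 2 probe sets above the floor on both arrays, the log2 ratios of the pair differed with a robust SD of 0.52. Of 344 genes past 2-fold with several measured probe sets, 69.2% had all of them on the same side of DSS, against 50.7% of all 5280 genes with several. The 344 were chosen by the ratio of 1 of these same probe sets, so the difference in shares is not a check on the calls.

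**Figure D1:**
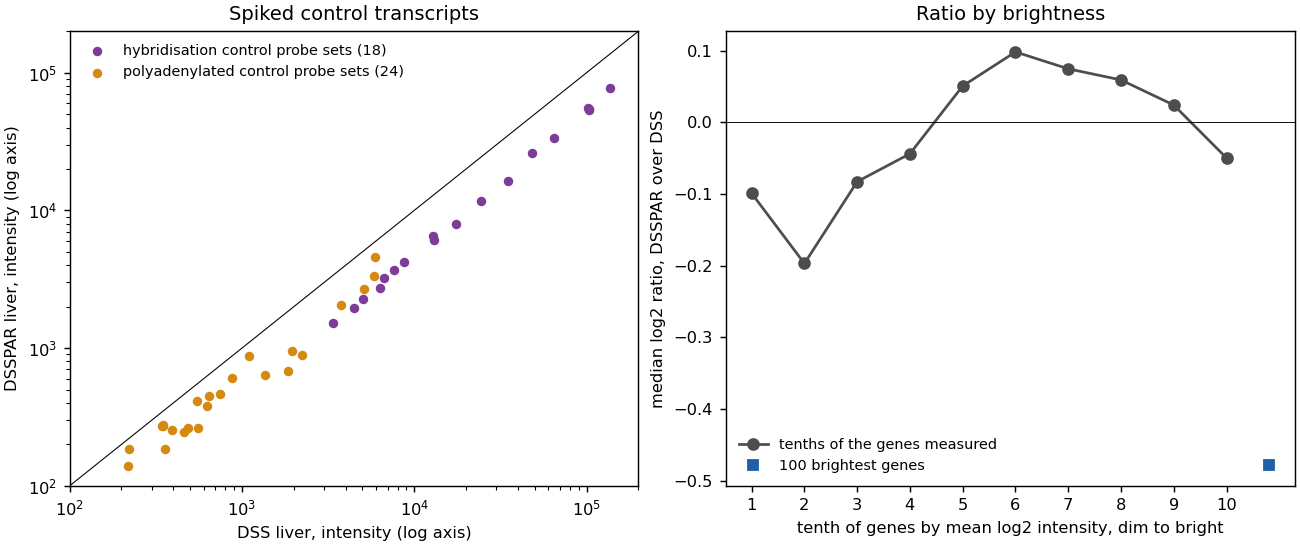
Left, intensities of 42 spiked control probe sets in DSSPAR liver (vertical log axis) and DSS liver (horizontal log axis), with the line of equal values. All lie under the line. Right, the median log2 ratio of DSSPAR over DSS for 10 bins of the measured genes ordered by mean log2 intensity, and for the 100 brightest genes, which lie at -0.48.

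Across the liver, 347 of 12398 genes were at least 2-fold higher in DSSPAR than in DSS (2.8%) and 525 at least 2-fold lower (4.23%), with 8 higher and 16 lower past 4-fold. With arrays centred on their own medians the split was 674 higher and 332 lower, and the median of all genes moved to 0.13, so the balance of higher and lower genes depends on scaling. Scaled to the hybridisation controls the split was 5708 higher and 23 lower, with a median of 0.92 over all genes, so nearly all lower calls ended there. The 15 genes furthest above and the 15 furthest below DSS are given next, among genes whose probe sets all lay on the same side. Acacb, the mitochondrial acetyl-CoA carboxylase whose product restrains fatty acid oxidation, read 1011 in DSSPAR, 179.5 in DSS and 1045 in CON (5.63-fold higher than DSS). Cyp26a1, which breaks down retinoic acid, read 575 in DSSPAR, 114 in DSS and 505 in CON (5.05-fold higher). Slc22a7, an organic anion transporter, read 5670.4 in DSSPAR, 1419 in DSS and 4586 in CON (log2 ratio 2.00). In these 3 genes DSS was the low array and DSSPAR lay near CON. Fasn, Got1 and G6pc, described below, were also among the 15 highest, with Trpc4ap (4.83-fold), Ppp1r37 (4.04-fold), the choline transporter-like gene Slc44a2 (at least 4.29-fold), Camta2 (3.58-fold), Gse1 (3.58-fold), Zfp467 (3.53-fold), Rusc1 (at least 5.05-fold), Sppl2b (at least 3.66-fold) and the valyl-tRNA synthetase gene Vars (at least 3.48-fold). These were dimmer, at 337 to 942 in DSSPAR liver. Under a floor at the 75th percentile, Trpc4ap (0.73 log2), Cyp26a1 (0.65), Slc44a2, Camta2, Gse1, Zfp467 and Rusc1 fell short of 2-fold, and Sppl2b and Vars were not measured.

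Lowest against DSS was A2m, the broad protease inhibitor alpha-2-macroglobulin, at 135 in DSSPAR, 2042 in DSS and 157 in CON (15.1-fold lower than DSS). Spink1, a secreted trypsin inhibitor, read 237 in DSSPAR, 2080.1 in DSS and 91.6 in CON (8.79-fold lower). Saa3, a serum amyloid gene of inflamed tissue, read 4031 in DSSPAR, 25048 in DSS and 760.2 in CON (6.21-fold lower). DSS was the high array for all 3 genes, and DSSPAR was close to CON for A2m but stayed above CON for Saa3. The steroid 17-hydroxylase gene Cyp17a1 read 359 in DSSPAR, 2091 in DSS and 516 in CON (5.82-fold lower), and the oestrogen sulphotransferase gene Sult1e1 read 56.9 in DSSPAR, 483 in DSS and 44.1 in CON (log2 ratio -2.32, a lower bound in size). Cyp4a14, a fatty acid hydroxylase induced through PPAR alpha, read 539 in DSSPAR, 2219 in DSS and 234 in CON (4.11-fold lower). The antimicrobial peptide gene Leap2, known also for blocking the ghrelin receptor, read 6197 in DSSPAR, 28992 in DSS and 18040.0 in CON (4.68-fold lower), so here DSSPAR lay under CON as well. The prefoldin subunit gene Pfdn4 was 4.48-fold lower, the ribosomal protein paralogue Rpl22l1 4.42-fold, Nrg4, a growth factor of the EGF family, 3.96-fold and the fatty acid binding protein gene Fabp4 4.02-fold, the last with probe sets between -2.01 and -0.19 log2. Zdhhc12 (at least 7.12-fold), Arhgef25 (4.21-fold), Zfp958 (4.14-fold) and Lce1h (at least 4.30-fold) made up the 15 lowest. Under a floor at the 75th percentile Zdhhc12 (-0.91 log2), Sult1e1 (-0.40), Arhgef25 and Lce1h fell short of 2-fold, and Fabp4 did so without probe sets that can match several transcripts (-0.19).

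**Figure D2:**
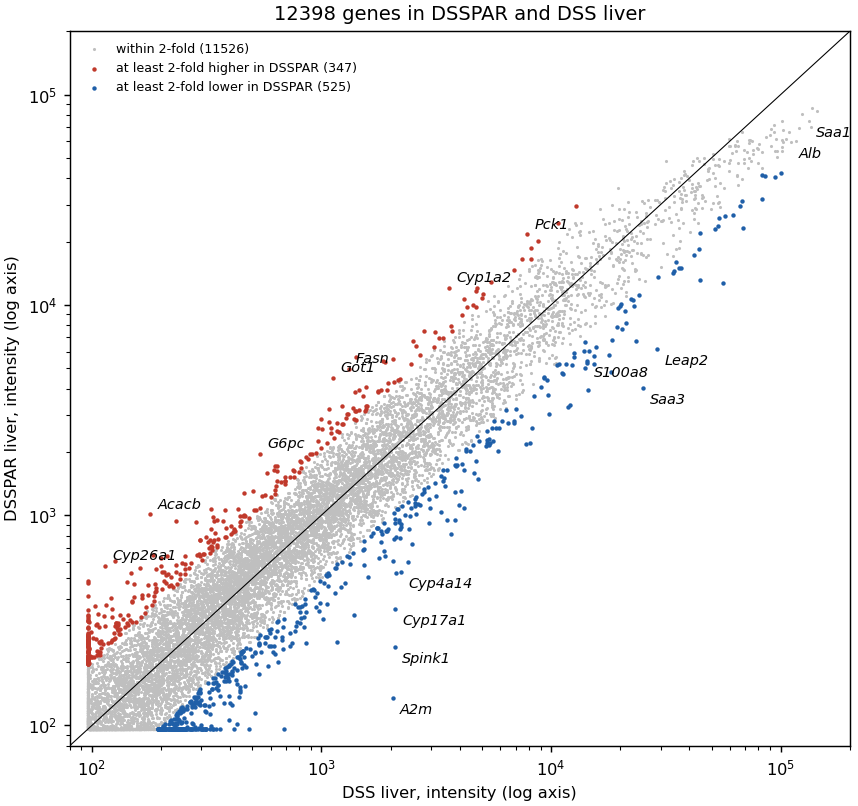
Intensity of the 12398 measured genes in DSSPAR liver (vertical) against DSS liver (horizontal), both on log axes and with values under the floor raised to it. Red points are the 347 genes at least 2-fold higher in DSSPAR, blue points the 525 at least 2-fold lower, and the line marks equal values. Of the 100 brightest genes 90 lie under the line, among them Alb and Saa1, and 10 above it.

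Promoter sequences are given for 3 genes that stood in the groups described next, Saa3 among acute phase genes, Fasn among lipogenic genes and Pck1 among gluconeogenic genes. They are the 250 bases before the annotated start in RefSeq, build GRCm38.p6, on the gene's own strand, at chr7:46715677-46715926 (minus strand), chr11:120824548-120824797 (minus strand) and chr2:173152823-173153072 (plus strand). Capitals mark matches, on either strand, to 6 motifs: the E-box CACGTG, the sterol element TCACNCCAC, the STAT element TTCNNNGAA, the C/EBP element TTGCNNAA, the cyclic AMP element TNACGTCA and the CCAAT box.
Saa3: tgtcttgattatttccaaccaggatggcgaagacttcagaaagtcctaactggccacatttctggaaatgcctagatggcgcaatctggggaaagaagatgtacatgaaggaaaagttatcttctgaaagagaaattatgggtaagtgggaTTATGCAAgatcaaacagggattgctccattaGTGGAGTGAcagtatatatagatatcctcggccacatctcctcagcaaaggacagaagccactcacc
Fasn: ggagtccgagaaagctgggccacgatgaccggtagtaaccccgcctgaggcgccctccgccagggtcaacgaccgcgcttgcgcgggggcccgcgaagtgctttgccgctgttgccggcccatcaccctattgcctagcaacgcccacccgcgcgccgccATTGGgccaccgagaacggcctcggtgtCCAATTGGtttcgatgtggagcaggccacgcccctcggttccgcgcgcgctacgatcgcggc
Pck1: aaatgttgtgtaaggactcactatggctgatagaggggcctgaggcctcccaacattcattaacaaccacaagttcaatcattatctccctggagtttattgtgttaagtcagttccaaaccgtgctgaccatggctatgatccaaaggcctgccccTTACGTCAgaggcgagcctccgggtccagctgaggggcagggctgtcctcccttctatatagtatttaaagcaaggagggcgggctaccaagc
The Saa3 stretch holds a C/EBP match from -99 to -92 and a sterol element match from -67 to -59. The Fasn stretch holds 3 CCAAT boxes, of which that from -62 to -58 and that from -59 to -55 overlap on opposite strands. The Pck1 stretch holds a cyclic AMP match from -93 to -86. Over all 32851 stretches of this length in the table, 9.56% hold the C/EBP match, 1.05% the sterol element, 33.8% the CCAAT box and 2.52% the cyclic AMP match. The E-box is in 6.02% and the STAT element in 7.02%, and neither is in the 3 stretches. A match describes letters and is not a measured binding site.

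The lists described next held 1262 genes, of which 1093 were on the array and 1002 measured, and a gene could stand in several lists. Over all measured genes 2.8% were at least 2-fold higher than DSS and 4.23% at least 2-fold lower. Above DSS lay 48.5% and below it 51.5%, and each list count below stands beside these shares. Most measured genes of fatty acid and triglyceride synthesis lay above DSS. Of 33 measured members 9 were at least 2-fold higher in DSSPAR and none lower, against 2.8% of all genes higher, and 26 lay above DSS, against 48.5% of all genes (median log2 ratio 0.67, against -0.02 over all genes). The chain starts with acetyl-CoA made in the cytosol. Acss2, which makes it from acetate, read 12059 in DSSPAR, 4768 in DSS and 12939.7 in CON (2.53-fold higher), and Acly, which makes it from citrate, read 12255 in DSSPAR, 6493 in DSS and 14662 in CON (log2 ratio 0.92, with probe sets between -0.32 and 1.54). Fasn, the fatty acid synthase that builds palmitate, read 4981 in DSSPAR, 1313 in DSS and 5283 in CON (3.79-fold higher). Elovl6, which lengthens palmitate, read 2788 in DSSPAR, 1078 in DSS and 4598 in CON (2.59-fold), and Fads2, the delta-6 desaturase of polyunsaturated fatty acids, read 7411 in DSSPAR, 3137 in DSS and 6485 in CON (2.36-fold). All 3 Fads2 probe sets lay between 1.14 and 1.38 log2. Me1, a source of NADPH for the synthase, read 3300.1 in DSSPAR, 1231 in DSS and 10766 in CON (2.68-fold), so it stayed under CON, and without probe sets that can match several transcripts it fell short of 2-fold (0.81 log2). Lpin1, the phosphatidate phosphatase of triglyceride synthesis, read 2863 in DSSPAR, 995 in DSS and 3271 in CON (2.88-fold), and the lipase family gene Pnpla5 read 314 in DSSPAR, 32.9 in DSS and 538 in CON (at least 3.25-fold). Acacb and the pyruvate kinase gene Pklr completed the 9, and DSS was the lowest of the 3 arrays in all of them. The lipogenic regulator genes Mlxipl and Srebf1 did not pass 2-fold, whereas Scap, given below under cholesterol synthesis, did. Mlxipl, which encodes the glucose-sensing factor ChREBP, read 1912 in DSSPAR, 1028 in DSS and 1959.8 in CON (log2 ratio 0.90), and Thrsp, a lipogenic target gene, read 24451 in DSSPAR, 12649.9 in DSS and 55639 in CON (0.95). Srebf1, which encodes a sterol-regulated factor that drives the same enzymes, read 5561 in DSSPAR, 3946 in DSS and 6835 in CON (0.49). In DSS against CON, which shares the DSS array, the same list had 15 of 35 members at least 2-fold lower and 2 higher (median -0.67), against 4.2% of all genes lower and 4.73% higher.

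Genes of glucose and glycogen handling lay above DSS with few exceptions. Of 36 measured members 34 lay above DSS, against 48.5% of all genes (median 0.51). At least 2-fold higher in DSSPAR were 10, against 2.8% of all genes, and none were lower. Both ends of the gluconeogenic route were among them. Pck1, which commits oxaloacetate to glucose, read 21705 in DSSPAR, 7874 in DSS and 14059.8 in CON (2.76-fold higher), though its 3 probe sets disagreed, at -1.51 to 1.57 log2, and their mean was 0.51. G6pc, which releases free glucose, read 1960.4 in DSSPAR, 538 in DSS and 5536 in CON (3.64-fold), and its partner Slc37a4, which carries glucose 6-phosphate into the endoplasmic reticulum, read 5255 in DSSPAR, 2443 in DSS and 5074 in CON (2.15-fold). G6pc in DSSPAR remained well under CON, whereas Slc37a4 was close to it. Got1, the cytosolic aspartate aminotransferase, read 4513 in DSSPAR, 1123 in DSS and 4428 in CON (4.02-fold). The glycolytic pyruvate kinase gene Pklr read 1709.9 in DSSPAR, 637 in DSS and 2823 in CON (2.68-fold, but 0.89 log2 as a mean over probe sets). Gckr, which encodes the regulator of glucokinase, read 3235 in DSSPAR, 1367 in DSS and 3299.9 in CON (2.37-fold). In glycogen metabolism Gbe1, the branching enzyme, read 4051 in DSSPAR, 1567 in DSS and 3858 in CON (2.58-fold), and Gys2, liver glycogen synthase, read 4267 in DSSPAR, 1952 in DSS and 5233 in CON (2.19-fold). The glycogen phosphorylase gene Pygl read 15468 in DSSPAR, 8544 in DSS and 20610.5 in CON (0.86 log2). The muscle-type pyruvate kinase gene Pkm, at 211 in DSSPAR, 99.6 in DSS and 48.5 in CON, was 2.12-fold higher. The liver phosphofructokinase gene Pfkl, at 286 in DSSPAR, 129.8 in DSS and 314 in CON, was 2.20-fold higher by its brightest probe set, but at -0.57 log2 without probe sets that can match several transcripts. Against CON the DSS liver had 11 of 36 members at least 2-fold lower and 1 higher (median -0.55). Over all genes 4.2% were lower and 4.73% higher there, and that pair shares the DSS array.

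**Figure D3:**
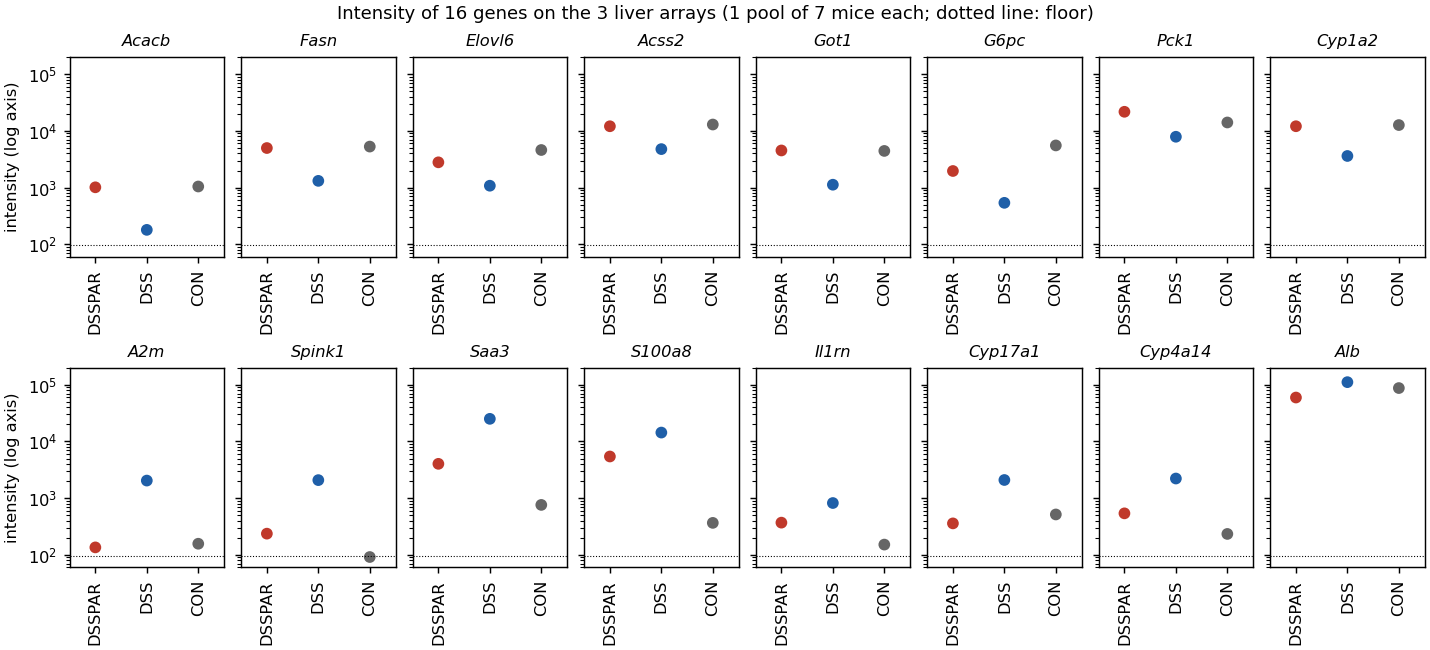
Intensity of 16 genes (log axes) on the DSSPAR, DSS and CON liver arrays, 1 point per array, each a pool of 7 mice, with the floor dotted. In the 8 metabolic genes of the upper row DSS is the lowest of the 3 arrays, and in all 8 genes of the lower row it is the highest. The 16 genes were picked from those named in the text, so they do not show how common this is. Of the 347 genes at least 2-fold higher in DSSPAR, DSS was at least 2-fold below CON in 150. Of the 525 at least 2-fold lower, DSS was at least 2-fold above CON in 167.

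Genes of the cholesterol synthesis and uptake list, which also held regulators and Lpin1, lay mostly above DSS too. Of 25 measured members 18 lay above DSS, against 48.5% of all genes (median 0.50). At least 2-fold higher were 4, against 2.8% of all genes, and none were lower. Fdps, which makes farnesyl diphosphate, read 12883 in DSSPAR, 5471 in DSS and 7278 in CON (2.35-fold), and Dhcr7, which acts at the last step of the pathway, read 3894 in DSSPAR, 1771 in DSS and 2136 in CON (2.20-fold). Both lay above CON as well as above DSS. Scap, the escort of the sterol-regulated transcription factors, read 3019 in DSSPAR, 1300.4 in DSS and 2954 in CON (2.32-fold). The remaining member past 2-fold was Lpin1, counted above under triglyceride synthesis. Of the 4, Fdps and Dhcr7 are enzymes of the pathway. Nsdhl was at 0.98 log2 and the lanosterol synthase gene Lss at 0.83. The list's own median was -0.01 for DSS against CON. In bile acid synthesis and transport 2 of 33 members stood at least 2-fold higher and none lower, and 25 lay above DSS (median 0.37). Cyp8b1, the sterol 12-hydroxylase that sets the share of cholic acid, read 2447 in DSSPAR, 1099 in DSS and 6529 in CON (2.23-fold), and the basolateral exporter gene Abcc3 read 1324 in DSSPAR, 626 in DSS and 977 in CON (2.12-fold). Cyp7a1, the rate-limiting enzyme, read 9114 in DSSPAR, 6648 in DSS and 3972 in CON (log2 ratio 0.46).

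Of 43 measured genes of amino acid breakdown and the urea cycle 5 stood at least 2-fold higher and none lower, and 31 lay above DSS (median 0.51). Besides Got1 these were Hal, the histidine ammonia-lyase, which read 3929.9 in DSSPAR, 1456 in DSS and 4764 in CON (2.70-fold), and Oat, ornithine aminotransferase, which read 11579 in DSSPAR, 4719 in DSS and 16283 in CON (2.45-fold). Glul, the glutamine synthetase of hepatocytes around the central vein, read 18686 in DSSPAR, 8154 in DSS and 13480.5 in CON (2.29-fold, 2 probe sets at 1.20 and 1.33 log2). Prodh, proline dehydrogenase, was 2.02-fold higher, falling short of 2-fold after quantile normalization (0.98 log2) or centring on probe sets above the floor (0.97 log2). The urea cycle gene Cps1 read 46105 in DSSPAR, 53171 in DSS and 60688 in CON (log2 ratio -0.21) and Arg1 read 47083 in DSSPAR, 79870.2 in DSS and 62882 in CON (-0.76). Among 25 methionine and one-carbon genes 2 were higher and none lower (median 0.29), Aldh1l1, the formyltetrahydrofolate dehydrogenase (2.28-fold), and Mthfd1 (2.02-fold, 0.92 log2 as a mean over probe sets). Nnmt, which methylates nicotinamide, read 12991 in DSSPAR, 25628 in DSS and 6416 in CON (-0.98 log2).

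Genes that handle foreign compounds had members past 2-fold on both sides. Of 22 measured targets of the xenobiotic receptors CAR and PXR 6 were at least 2-fold higher and 2 lower, with 16 above DSS (median 0.70). Ces2a, a carboxylesterase, read 2594 in DSSPAR, 964 in DSS and 4267 in CON (2.69-fold), Alas1, the first enzyme of haem synthesis, read 11217 in DSSPAR, 5039 in DSS and 8844 in CON (2.23-fold), and the glutathione transferase gene Gstm3 read 1959.8 in DSSPAR, 888 in DSS and 1108 in CON (2.21-fold). Abcc3, Cyp2c29 and Cyp2c37 were the other higher members. The 2 lower members, Cyp3a11 (40992 in DSSPAR, 85307 in DSS and 69653 in CON) and the sulphotransferase gene Sult1d1 (13542 in DSSPAR, 29238 in DSS and 23096 in CON), were bright genes and fell short of 2-fold after quantile normalization, at -0.57 and -0.91 log2, and with arrays centred on their own medians, at -0.90 and -0.95. Among 41 cytochrome P450 genes of families 1 to 4, 4 were higher and 2 lower (median 0.26). Cyp1a2, which oxidises caffeine and arylamines, read 12067 in DSSPAR, 3608 in DSS and 12659 in CON (3.34-fold higher), Cyp4f14 3683 in DSSPAR, 1510.1 in DSS and 3183 in CON (2.44-fold) and Cyp2c29 24578 in DSSPAR, 10677 in DSS and 20210.3 in CON (2.30-fold). Cyp2c37 was 2.04-fold higher, at 0.98 log2 with centring on probe sets above the floor. Probes of the Cyp2c, Cyp3a and Cyp4a families can share signal between near-identical members. Of the 10 measured targets of the aryl hydrocarbon receptor Cyp1a2 alone was at least 2-fold higher. The receptor gene Ahr itself read 4495 in DSSPAR, 9339.6 in DSS and 2482 in CON (2.08-fold lower, -0.89 log2 with arrays centred on their own medians), and Cyp1a1, its most inducible target, read 78.2 in DSSPAR, 150.2 in DSS and 151 in CON (log2 ratio -0.64, a lower bound in size since DSSPAR was under the floor). The list's median was 0.03.

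Conjugating enzymes were split. Of 42 measured transferases 7 were at least 2-fold higher and 4 lower (median 0.21). The glutathione transferase genes Gsta4 (946 in DSSPAR, 351 in DSS and 1497 in CON), Gstm6 (858 in DSSPAR, 329.9 in DSS and 1389 in CON) and Gstm2 (933 in DSSPAR, 445 in DSS and 939 in CON) were 2.69-fold, 2.60-fold and 2.10-fold higher. Gstm1 was 2.67-fold and Tpmt, thiopurine methyltransferase, 2.34-fold higher, and both fell short of 2-fold without probe sets that can match several transcripts, at 0.84 and 0.69 log2. Gstt3 (2.63-fold) and Gstm3 completed the higher members. The lower ones were Sult1e1, Sult1d1, the arylamine acetyltransferase gene Nat1 (2.36-fold) and the glucuronosyltransferase gene Ugt2b37 (2.23-fold). Gstt3, Nat1 and Ugt2b37 were dim and fell short of 2-fold under a floor at the 75th percentile, at 0.09, -0.06 and -0.55 log2. Among 41 glutathione genes and targets of NRF2, a regulator of antioxidant defence, 5 were higher and 3 lower (median 0.24). The higher members were Gsta4, Me1, Gstm1, Abcc3 and Gsr, glutathione reductase (2.02-fold, 0.99 log2 after quantile normalization). The lower ones were the carbonyl reductase gene Cbr3 (113 in DSSPAR, 327 in DSS and 135 in CON, 2.89-fold) and the peroxidase genes Gpx3 (2.40-fold, -0.29 log2 under a floor at the 75th percentile) and Gpx4 (2.08-fold, -0.95 log2 after quantile normalization). The quinone reductase gene Nqo1, a standard NRF2 target, read 214 in DSSPAR, 161 in DSS and 237 in CON (log2 ratio 0.41), and the haem oxygenase gene Hmox1 read 479.7 in DSSPAR, 278 in DSS and 316 in CON (0.79). Carboxylesterases, flavin monooxygenases and aldehyde or alcohol enzymes had 6 of 34 members higher and none lower (median 0.30). Ces2e (2.63-fold), the aldehyde oxidase gene Aox3 (2.16-fold), the monoamine oxidase gene Maob (2.15-fold) and Ces1g (2.08-fold) were past 2-fold beside Ces2a and the aldo-keto reductase gene Akr7a5 (2.15-fold, 0.67 log2 without probe sets that can match several transcripts).

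Genes of the hepatocytes around the central vein and of those around the portal tract lay mostly above DSS in both cases. Of 23 pericentral genes 6 were higher and 1 lower (median 0.46), and of 22 periportal genes 3 were higher and 2 lower (median 0.56). The lower periportal genes were Apoa4, which encodes an apolipoprotein of triglyceride-rich particles and read 4813 in DSSPAR, 18159 in DSS and 9565 in CON (3.77-fold lower, 2 probe sets at -2.68 and -1.92 log2), and the bile duct factor gene Sox9 (at least 2.07-fold, -0.99 log2 after quantile normalization).

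Acute phase genes lay mostly below DSS. Of 29 measured members 5 were at least 2-fold lower in DSSPAR and none higher, against 4.23% of all genes lower, and 26 lay below DSS, against 51.5% of all genes (median -0.63). In all, 10 members were among the 100 brightest genes, whose median was -0.48, and the other 19 had a median of -0.58 with 16 below DSS. After quantile normalization the list's median was -0.10, nearer 0 than that of chemokines (-0.33). Scaling to the hybridisation controls moved the median of all genes from -0.02 to 0.92. List medians were not recomputed there, so the list's direction under that scaling was not tested. The most abundant members differed about as much as albumin did (log2 ratio -0.90). Saa1, a serum amyloid gene of the hepatocyte, read 74663 in DSSPAR, 132750.0 in DSS and 17015 in CON (-0.83 log2). Its close paralogue Saa2, whose probes can share signal with Saa1, read 54046 in DSSPAR, 101133 in DSS and 4034 in CON (-0.90). Hp, haptoglobin, read 41406 in DSSPAR, 82955 in DSS and 39745 in CON, or just past 2-fold lower (-0.52 log2 after quantile normalization). A2m and Saa3, given above, were furthest below DSS. The lipopolysaccharide receptor gene Cd14 read 381 in DSSPAR, 983 in DSS and 138 in CON (2.58-fold lower), and Il1rn, the interleukin 1 receptor antagonist, read 370.0 in DSSPAR, 821 in DSS and 152 in CON (2.22-fold lower, 3 probe sets from -1.21 to -0.71 log2, and -0.99 with arrays centred on their own medians). The zinc-binding metallothionein gene Mt1 read 56099 in DSSPAR, 101145 in DSS and 2176 in CON (-0.85), and Mt2 read 36946 in DSSPAR, 65090.5 in DSS and 919 in CON (-0.82). DSSPAR lay far above CON for Saa1, Saa2, Mt1 and Mt2. For Lcn2, which encodes a siderophore-binding protein, the values were 35786 in DSSPAR, 56782 in DSS and 227 in CON (log2 ratio -0.67). In DSSPAR against CON 20 of 29 members were at least 2-fold higher and 1 lower (median 1.63), and in DSS against CON 23 were higher and 1 lower (median 2.59). Over all genes DSSPAR had 3.26% higher and 3.45% lower than CON, and DSS 4.73% higher and 4.2% lower. These comparisons share arrays with each other.

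Signalling genes upstream of that response showed no common direction. Of 26 measured genes of the IL6, STAT and SOCS group 1 was at least 2-fold lower and none higher, with 12 above and 14 below DSS (median -0.02). The lower gene was Il1r1, the interleukin 1 receptor, which read 1812 in DSSPAR, 4709 in DSS and 785 in CON (2.60-fold lower). Osmr, the oncostatin M receptor, read 414 in DSSPAR, 824 in DSS and 117 in CON (-0.99 log2), Socs3, a feedback inhibitor of STAT3, read 6791 in DSSPAR, 10215 in DSS and 3133 in CON (-0.59), and Stat3 read 3715 in DSSPAR, 2347 in DSS and 1145 in CON (0.66). Of 16 chemokine genes 2 were lower and none higher, against 4.23% and 2.8% of all genes. Below DSS lay 14, against 51.5% of all genes (median -0.40). Cxcl13, which attracts B cells, read 839 in DSSPAR, 1916 in DSS and 286 in CON (2.28-fold lower), the monocyte attractant gene Ccl2 read 64.4 in DSSPAR, 206 in DSS and 26.4 in CON (at least 2.14-fold), and the neutrophil attractant gene Cxcl1 read 18538 in DSSPAR, 36092 in DSS and 1829 in CON (-0.96 log2). Interferon-stimulated genes had 1 of 33 members higher and 1 lower (median 0.24). These were the RNA sensor gene Ddx58 (2.18-fold higher, 0.63 log2 as a mean over probe sets) and Ifi27l2a, which read 2168 in DSSPAR, 7779 in DSS and 2317 in CON (3.59-fold lower). None of 16 antigen presentation genes passed 2-fold (median 0.16). Complement and coagulation genes had 24 of 35 members above DSS (median 0.15), with C6 2.20-fold higher (3867 in DSSPAR, 1755 in DSS and 2728 in CON) and Mbl1, a mannose-binding lectin that starts complement activation, 2.41-fold lower (18332 in DSSPAR, 44201 in DSS and 17456 in CON).

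Markers of leukocytes stand beside these genes, and in whole tissue fewer cells of a type and less RNA per cell cannot be told apart. Of 12 measured neutrophil markers 3 were at least 2-fold lower and none higher, and 10 lay below DSS (median -0.52), with a summed intensity over the 14 members on the array of 51455 in DSSPAR, 89105 in DSS and 1999 in CON. S100a8, a calprotectin subunit, read 5429 in DSSPAR, 14340.5 in DSS and 367 in CON (2.64-fold lower), and its partner S100a9 read 2602 in DSSPAR, 8274 in DSS and 381 in CON (3.18-fold). The granule protease gene Elane read 31.2 in DSSPAR, 265 in DSS and 190.3 in CON (at least 2.74-fold). The defining markers Mpo and Cxcr2 were under the floor on all 3 arrays. Lcn2, which hepatocytes also make, gave most of the summed intensity in DSSPAR and DSS. Of 21 Kupffer cell and macrophage markers 2 were lower and none higher, and 13 lay below DSS, against 51.5% of all genes (median -0.21), with summed intensities of 74731 in DSSPAR, 88002 in DSS and 43522 in CON. Ccr2, the receptor of recruited monocytes, read 192 in DSSPAR, 582 in DSS and 226 in CON. Chil3, a chitinase-like gene of activated macrophages, read 256 in DSSPAR, 670.2 in DSS and 30.4 in CON. Both were short of 2-fold under a floor at the 75th percentile (-0.67 and -0.87 log2). The resident Kupffer cell markers Clec4f (4512 in DSSPAR, 6333 in DSS and 3610.0 in CON) and Timd4 (665 in DSSPAR, 526 in DSS and 244 in CON) did not pass 2-fold. The part of leukocytes in the acute phase values was not tested.

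Of 21 stellate cell, fibroblast and matrix markers 2 were lower and none higher (median -0.35), Rgs5 (2.09-fold) and the collagen gene Col3a1 (2.03-fold), neither of them past 2-fold once arrays were centred on their own medians (-0.91 and -0.86 log2). Of 18 endothelial markers 10 lay above and 8 below DSS (median 0.10), with summed intensities of 21618 in DSSPAR, 29141 in DSS and 18025.5 in CON. Stab1, a scavenger receptor of sinusoids, was 2.45-fold higher (0.14 log2 under a floor at the 75th percentile), and none was 2-fold lower. The brighter markers Clec4g (7961 in DSSPAR, 13366 in DSS and 6932 in CON) and Vcam1 (930 in DSSPAR, 1834 in DSS and 642 in CON) lay below DSS, at -0.75 and -0.98 log2. Of 9 B and plasma cell markers Ighm was 3.09-fold higher by its brightest probe set, though its 5 probe sets lay between -0.63 and 1.63 log2. In that list 5 lay above and 4 below DSS (median 0.02). The defining T cell genes Cd3e, Cd4 and Cd8a were not measured in this pair. None of 4 T and NK cell markers (3 below DSS), 5 erythroid markers or 13 hepatocyte markers passed 2-fold (medians -0.31, -0.30 and -0.21). Exocrine pancreas markers were dim, with 8 of 15 under the floor on all 3 arrays. The trypsinogen gene Prss2 read 87.5 in DSSPAR, 336 in DSS and 201 in CON and Cela3b 168 in DSSPAR, 345 in DSS and 177 in CON, both past 2-fold lower (DSSPAR under the floor for Prss2) among 7 measured (median -0.49). Prss2 came to -0.90 log2 as a mean over probe sets and Cela3b to -0.97 after quantile normalization. In colon 12 of 14 such markers were at least 2-fold lower in DSSPAR (median -2.97). Of 4 intestinal epithelium markers Tff3 (4387 in DSSPAR, 9631 in DSS and 1718 in CON) and Fabp2 (5240.2 in DSSPAR, 10784 in DSS and 16643 in CON) were 2.20-fold and 2.06-fold lower, and at -0.97 and -0.88 log2 with arrays centred on their own medians. The defining intestinal genes Vil1, Cdx1, Muc2 and Cdh17 were among the 6 of 11 under the floor on all 3 arrays. Adipocyte markers split, with Fabp4 lower and Pparg higher (at least 2.22-fold) among 3 measured. Of 2 cholangiocyte markers measured, Sox9 was lower.

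**Figure D4:**
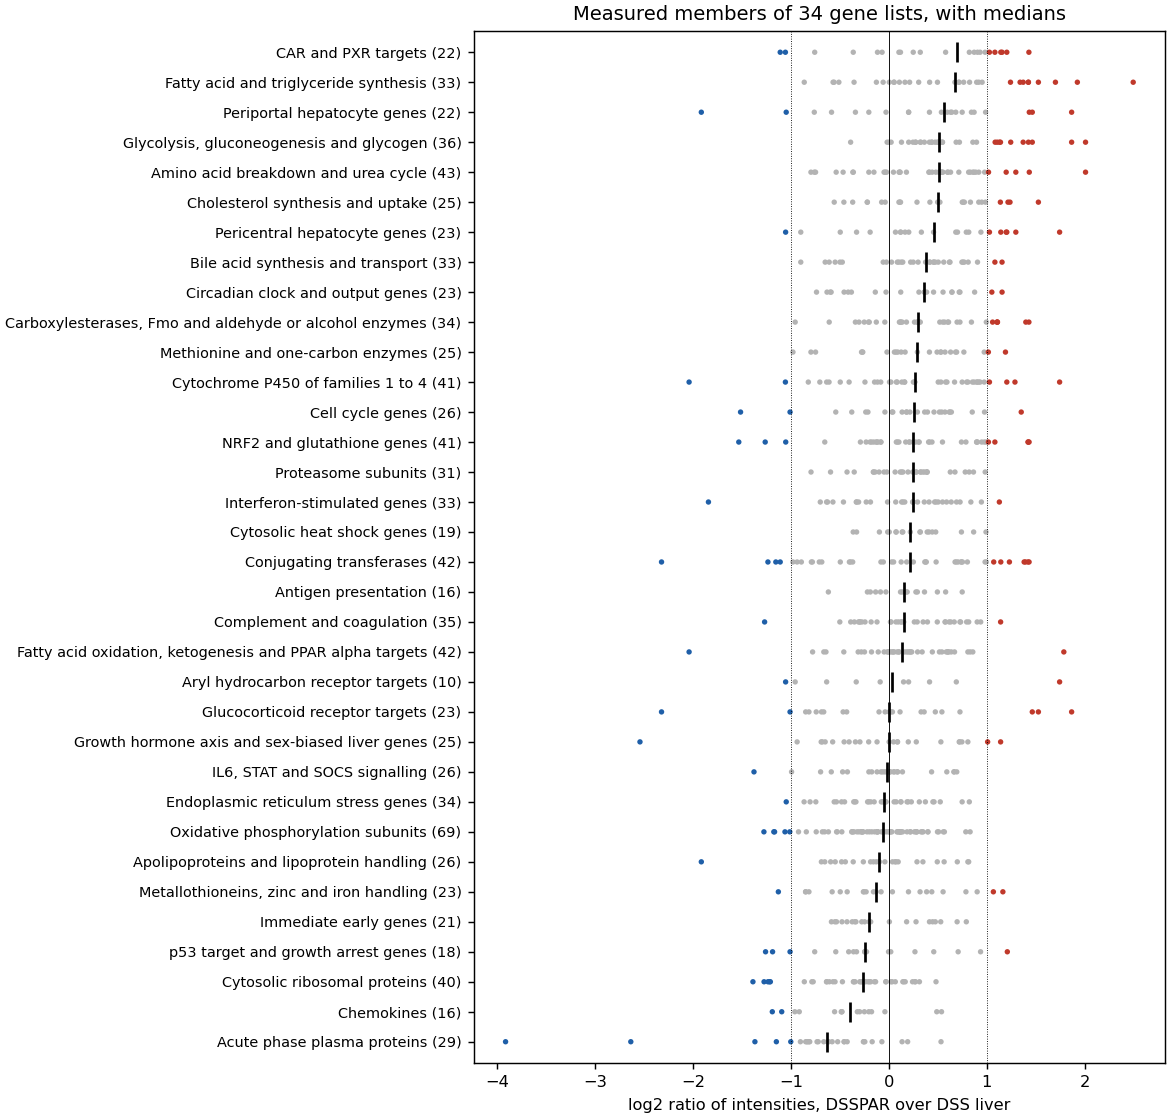
Log2 ratio of DSSPAR over DSS liver for each measured member of 34 gene lists (points) with the list's median (black bar) and its number of measured members in brackets, ordered by median. Red points are at least 2-fold higher, blue points at least 2-fold lower, and dotted lines mark 2-fold. Fatty acid and triglyceride synthesis lies near the top with a median of 0.67, and acute phase proteins lie at the bottom with -0.63.

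Lipid oxidation and lipoprotein genes had few members past 2-fold. Of 42 measured genes of fatty acid oxidation, ketogenesis and PPAR alpha 28 lay above DSS, against 48.5% of all genes (median 0.13). At least 2-fold higher was 1 and lower 1, against 2.8% and 4.23% of all genes. These were the carnitine acetyltransferase gene Crat, 3.45-fold higher by a probe set that can match several transcripts but -0.41 log2 without it, and Cyp4a14. The carnitine palmitoyltransferase gene Cpt1a read 8255 in DSSPAR, 6528 in DSS and 6624 in CON (log2 ratio 0.34), and Ppara itself read 6133 in DSSPAR, 3946 in DSS and 5897 in CON (0.64). Among 26 apolipoprotein and lipoprotein genes Apoa4 alone passed 2-fold (median -0.10, which turned to 0.18 after quantile normalization). Of the 26, 11 lay above DSS and 15 below. Growth hormone axis and sex-biased genes had 2 of 25 members higher and 1 lower (median 0.00), C6 and Igfals (2.01-fold, 0.99 log2 after quantile normalization) higher and Cyp17a1 lower. Several male-biased genes were under CON on both other arrays. Cyp4a12a, a fatty acid hydroxylase, read 862 in DSSPAR, 493 in DSS and 6773 in CON (0.81 log2 for DSSPAR over DSS). The fatty acid elongase gene Elovl3 read 981 in DSSPAR, 597 in DSS and 5938 in CON (0.72), and the glucuronosyltransferase gene Ugt2b38 read 972 in DSSPAR, 1862 in DSS and 14232 in CON (-0.94).

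Dbp, a transcription factor under direct clock control, read 9754 in DSSPAR, 4711 in DSS and 11356 in CON (2.07-fold higher, 0.93 log2 without probe sets that can match several transcripts) and with Alas1 made 2 of 23 circadian genes higher and none lower (median 0.36). The core clock gene Arntl read 117 in DSSPAR, 176 in DSS and 96.5 in CON (log2 ratio -0.60) and Per2 read 582 in DSSPAR, 373 in DSS and 491 in CON (0.64). Of 23 glucocorticoid targets 3 were higher, G6pc, Lpin1 and Pck1, and 2 lower, Sult1e1 and Cdkn1a (median 0.00). Tsc22d3, a standard target, read 2508 in DSSPAR, 1518 in DSS and 1635 in CON (0.72).

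None of 31 proteasome genes passed 2-fold, but 21 lay above DSS, against 48.5% of all genes (median 0.24). Likewise none of 19 cytosolic heat shock genes passed 2-fold, with 15 above DSS (median 0.22). The highest members were Psmd2 (0.98 log2) and Ahsa1 (0.99). Ribosomal protein genes lay below DSS in 29 of 40 cases, against 51.5% of all genes (median -0.27). Of the 40, 7 were among the 100 brightest genes, whose median was -0.48. The other 33 had a median of -0.20, with 22 below DSS. At least 2-fold lower were 5, against 4.23% of all genes. Examples were Rps7 (31792 in DSSPAR, 83252 in DSS and 56092 in CON, 2.62-fold) and Rpl13a (42429 in DSSPAR, 99901 in DSS and 63322 in CON, 2.35-fold). Both fell short of 2-fold after quantile normalization, at -0.93 and -0.69 log2. Oxidative phosphorylation subunits were lower in 5 of 69 cases and higher in none, against 4.23% and 2.8% of all genes. Their median was -0.06, and 0.06 after quantile normalization. The bright small subunits Atp5l (17247 in DSSPAR, 41785 in DSS and 34418 in CON, 2.42-fold), Cox6c (2.26-fold) and Ndufa4 (2.25-fold) were the lowest, the last 2 at -0.82 and -0.82 log2 after quantile normalization, whereas Uqcrc1, a core subunit of complex III, read 6682 in DSSPAR, 3763 in DSS and 8073 in CON (0.83). Of 34 endoplasmic reticulum stress genes Trib3 alone passed 2-fold, lower by its brightest probe set but with probe sets at -1.05 and 0.29 log2 (median of the list -0.05), and the chaperone gene Hspa5 read 28876 in DSSPAR, 42546 in DSS and 23962 in CON (-0.56).

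Of 26 cell cycle genes 1 was higher and 2 lower, with 19 above DSS (median 0.25). Foxm1, a factor that drives mitotic genes, read 246 in DSSPAR, 10.3 in DSS and 75.4 in CON (at least 2.55-fold higher). Ccne2, a cyclin of the entry into S phase, read 293 in DSSPAR, 838 in DSS and 341 in CON (2.86-fold lower), and Cdkn1a, which encodes the arrest protein p21, read 188 in DSSPAR, 379 in DSS and 155 in CON (2.01-fold, -0.96 log2 after quantile normalization). Among 18 p53 target and growth arrest genes 1 was higher and 3 lower (median -0.25), Phlda3 (2.39-fold), Gadd45g (2.28-fold) and Cdkn1a lower and Mdm2, the brake on p53, higher (2.31-fold, 0.54 log2 as a mean over probe sets). None of 21 immediate early genes passed 2-fold (median -0.20), and Egr1, with the highest ratio among them, read 7112 in DSSPAR, 4114 in DSS and 1660.4 in CON (0.79). Of 23 metal handling genes 2 were higher and 1 lower (median -0.13). The zinc importer gene Slc39a4 read 986 in DSSPAR, 440.3 in DSS and 506 in CON (2.24-fold higher). Hamp2, a paralogue of the iron hormone hepcidin, read 1976 in DSSPAR, 944 in DSS and 16794 in CON (2.09-fold higher). Its DSSPAR and DSS values were both well under CON. Hamp, hepcidin itself, read 9426 in DSSPAR, 14091 in DSS and 35496 in CON (-0.58). Tfrc, the receptor for transferrin-bound iron, read 2803 in DSSPAR, 6131 in DSS and 1965 in CON (2.19-fold lower, -0.42 log2 as a mean over probe sets).

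The colon arrays of the same groups gave a comparison that shares no array with the liver. It is not an independent repeat, since the groups and their days on the polymer were the same for both tissues. In colon 46 of 11730 genes were at least 2-fold higher in DSSPAR than in DSS (0.392%) and 146 lower (1.24%). Of 10463 genes measured in both tissues, 2 were at least 2-fold higher in both, which is 0.654% of the 306 liver genes and 6.06% of the 33 colon genes. Another 9 were lower in both, or 2.08% of 432 liver genes and 8.74% of 103 colon genes. The genes higher in both were Acss2, with log2 ratios of 1.34 in liver and 1.07 in colon, and the histone gene H2bc22 (1.30 in liver and at least 1.22 in colon, where DSS was under the floor). Those lower in both included Saa3 (-2.64 in liver and -1.57 in colon), Hp (given above, and -2.03 in colon), Cxcl13 (-1.19 and -1.27), Ccl2 (-1.09, a lower bound in size, and -1.70), Chil3 (-1.39 and -1.80) and Prss2 (-1.80 and -4.53, both lower bounds in size since DSSPAR was under the floor), and also Cela3b, the opioid precursor gene Penk and Tcl1b3. For Prss2 and Cela3b the colon's own shift in pancreas markers, given above, stands beside these values and its part was not tested. Of the other lipogenic genes, Fasn was at -0.22 and Acacb at -0.30 log2 in colon. The difference between the tissues was not tested, and the arrays of the 2 tissues were scaled apart.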

How the data were processed

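RNA of 7 mice per group was pooled and hybridised to 1 Affymetrix Mouse Genome 430 2.0 array per group and tissue, with 15 µg of RNA used each time, per the labels' protocols. The deposited values are linear signal intensities that the authors computed with MAS5 (version not given in the sources used here, and likewise its scaling target). The trimmed mean without the lowest and highest 2% was 500.0 on each liver array, and no value column went unused (0). Of 45101 probe sets, 34958 carried 1 gene symbol, 932 several and 9211 none here, and 34754 matched the gene table, with 0 symbols updated. Each gene was represented by its brightest probe set. Values under the floor, the median over the 3 liver arrays, were raised to it before log2 ratios were taken. Calls were ratios of at least 2-fold, without a test, since there was 1 array per group. Alternatives changed the floor, the scaling, the probe sets used and the fold. Named genes were the 15 highest and 15 lowest whose brighter array reached the 60th percentile and whose probe sets shared a sign, list members past 2-fold, up to 4 extreme members per list, and markers. Other list members, such as Srebf1 or Stat3, were named after their values were seen. The members and the 46 lists were chosen with earlier results of these data known. Python 3.11.15, NumPy 2.4.6, pandas 2.3.3 and matplotlib 3.10.9 were used, and the scripts were tested on simulated data. Promoters came from RefSeq.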

Additional observations from a re-analysis of the deposited data

Results flagged for a closer look

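Of 10463 genes measured in both tissues, 5 moved apart. In them DSSPAR lay below DSS by 2-fold or more in liver and above it by 2-fold or more in colon. None showed the reverse. Over the same 10463 genes, 432 were at least 2-fold lower in liver and 33 at least 2-fold higher in colon. For the reverse, 306 were higher in liver and 103 lower in colon. The difference between the tissues was not tested. The angiogenin gene Ang4 had a log2 ratio of -1.499 in liver, where DSSPAR lay under the floor, and 1.59 in colon. For Edn3, which encodes endothelin 3, the ratios were -2.23 in liver and 1.16 in colon, and its other liver probe set stood at 0.61. Nacc1 was at -1.65 in liver, again with DSSPAR under the floor, and at 1.04 in colon. Tex12, a gene of meiotic chromosomes, was at -1.03 and 1.08, and the zinc finger gene Zfp931 at -1.90 and 1.23. With 1 array per group and tissue, none of these differences has a replicate check.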

How the results depend on the processing

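Genes past 2-fold above and below DSS liver numbered 150 and 230 under a floor at the 75th percentile, 1934 and 2632 with no floor, 674 and 332 with arrays centred on their own medians, and 35 and 68 at 3-fold. Scaled to the hybridisation controls, an alternative chosen after seeing the data, the counts were 5708 and 23 and the median of all genes 0.92. Quantile normalization, centring on probe sets above the floor, the mean over probe sets, leaving out probe sets that can match several transcripts and leaving out the 100 brightest genes kept both counts within 1.5 times. Under a floor at the 75th percentile Cbr3, Ccl2, Cela3b, Elane, Foxm1, Pfkl, Phlda3, Pkm, Pnpla5, Pparg, Prss2, Sox9, Sppl2b, Trib3 and Vars were not measured. The acute phase median was -0.10 after quantile normalization. Across settings 32 recomputed list medians changed sign. With arrays centred on their own medians these were cholangiocyte markers (0.0270), IL6 signalling (0.14), apolipoproteins (0.0613), endoplasmic reticulum stress (0.11), metal handling (0.00239) and oxidative phosphorylation (0.10). After quantile normalization they were hepatocyte markers (0.24), cholangiocyte markers (0.0263), apolipoproteins (0.18), metal handling (0.00661), oxidative phosphorylation (0.0603) and glucocorticoid targets (-0.0115). With centring on probe sets above the floor they were B cell markers (-0.0243), aryl hydrocarbon receptor targets (-0.0194), growth hormone genes (-0.0471) and glucocorticoid targets (-0.0471). Under a floor at the 75th percentile they were endothelial (-5.10e-05) and adipocyte markers (-0.89), aryl hydrocarbon receptor targets (-0.17) and glucocorticoid targets (-0.0188), and with no floor adipocyte markers (-0.48) and growth hormone genes (-0.12). With the mean over probe sets they were endothelial markers (-0.0687) and oxidative phosphorylation (0.000979). Without probe sets that can match several transcripts they were B cell (-0.0806) and endothelial markers (-5.10e-05), growth hormone genes (-0.21), oxidative phosphorylation (0.0360) and glucocorticoid targets (-0.0188), and the genes Cdc20 (-0.86), Crat (-0.41) and Pfkl (-0.57). Epcam stood at -0.0390 with centring on probe sets above the floor. Without the 100 brightest genes they were hepatocyte (0.47) and adipocyte markers (-0.43) and apolipoproteins (0.0668). The cause of these changes was not tested. No paired analysis was possible because each group had 1 array per tissue, so no replicate could be left out either.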
